A study of Homo sapiens with 9 samples.

Results

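Cytosolic ribosomal proteins, the protein components of the ribosomes that translate messages of nuclear genes, made up 81 of the 38478 gene rows measured in OPM-1 cells. They were taken by gene symbol, from the RPL and RPS names with an optional A, X or L ending, the stalk proteins RPLP0, RPLP1 and RPLP2, and RPSA. Pseudogene names and the Y-linked copy of RPS4 were left out, and no measured value entered the choice. Of the 81 genes, 46 belong to the large subunit, 32 to the small subunit and 3 to the stalk, and 77 had enough reads to be tested among 13262 genes. OPM-1 is an established human plasma cell myeloma line, grown here in RPMI medium with serum. All cells had the labelled genotype WT and stably expressed RNAs aimed at a target, which was luciferase in the control group (gLuc), FBXW7 in the second group (gFBXW7), and FBXW7 together with KMT2D in the last group (gFBXW7_gKMT2D). Polyadenylated RNA was sequenced in 3 libraries per group, which the series describes as independent biological replicates, and neither the way the RNAs act on their targets nor the number of cell clones behind each group is given in the sources used here. The comparisons ask whether the level of ribosomal protein messages followed the targeted gene or varied from library to library within the groups.

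A ribosome holds each of its proteins in about the same number of copies, and cells keep the production of these proteins in step with ribosomal RNA. Most of their messages start with a terminal oligopyrimidine (TOP) tract, a C at the first transcribed base followed by more C and T, through which LARP1 and the mTORC1 kinase set how much of the message is translated and how long it is stored. Plasma cells translate large amounts of immunoglobulin, and MYC, a substrate of the FBXW7 ubiquitin ligase, is a known activator of ribosomal protein genes.

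The starts of 10 of these genes are shown because the members fall into those with a TOP start and those without, and because the genes include the most abundant messages and those with the widest and the narrowest spread between libraries. Each line gives 40 bases before and 20 bases from the transcription start on the transcribed strand, from RefSeq on GRCh38.p14, with the unbroken pyrimidine tract from the first transcribed base in capitals.

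RPL37A (chr2:216498804-216498863, plus strand): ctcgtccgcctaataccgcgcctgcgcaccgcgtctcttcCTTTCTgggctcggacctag
RPS6 (chr9:19380217-19380276, minus strand): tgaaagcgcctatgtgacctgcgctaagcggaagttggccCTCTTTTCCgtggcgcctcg
RPLP1 (chr15:69452778-69452837, plus strand): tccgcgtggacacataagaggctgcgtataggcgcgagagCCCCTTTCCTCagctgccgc
RPS27A (chr2:55232648-55232707, plus strand): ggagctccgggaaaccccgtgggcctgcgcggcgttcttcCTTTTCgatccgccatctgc
RPL21 (chr13:27251518-27251577, plus strand): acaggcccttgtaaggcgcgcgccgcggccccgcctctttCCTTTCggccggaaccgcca
RPL29 (chr3:51995876-51995935, minus strand): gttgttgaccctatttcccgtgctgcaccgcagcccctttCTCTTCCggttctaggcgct
RPS4X (chrX:72277229-72277288, minus strand): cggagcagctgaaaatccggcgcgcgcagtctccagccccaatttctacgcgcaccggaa
RPS27 (chr1:153990722-153990781, plus strand): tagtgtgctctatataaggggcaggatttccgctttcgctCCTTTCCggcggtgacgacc
RPS27L (chr15:63157458-63157517, minus strand): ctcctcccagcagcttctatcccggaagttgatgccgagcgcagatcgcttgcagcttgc
RPL39 (chrX:119791611-119791670, minus strand): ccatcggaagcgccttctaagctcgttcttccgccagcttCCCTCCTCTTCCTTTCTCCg

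RPL39 carries the longest tract of the members, 19 pyrimidines, whereas no C stands at the listed start of RPS4X or RPS27L. RefSeq lists 3 starts for RPS27A, of which the shown start has a tract of 6. Of the 81 genes, 64 had a promoter in the RefSeq table. A start with C and at least 5 pyrimidines in a row was listed for 46 of these 64 genes (71.9%), against 7.01% of the other tested genes and 5.14% of all genes in the table. The word CTTTCC, read on the transcribed strand from 15 bases before to 20 bases after the start, where it can overlap the tract itself, stood in 25.3% of the 79 promoters of members, in 1.82% of those of the other tested genes and in 1.78% of all promoters. Over the whole 300 bases and both strands, the ETS-type word CCGGAA stood in 53.2% of member promoters, against 27.3% for the other tested genes and 17.2% of all. The E-box CACGTG stood in 5.06%, against 9.53% and 7.26%. For the TATA word TATAAA (7.59%) and the GC-box word GGGCGG (55.7%) the direction depended on the background, with 6.19% and 65.2% for the other tested genes but 11.5% and 45.0% of all promoters. These are matches of letters, not measured sites of binding or of transcription start in OPM-1.

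Libraries held 16337492 to 27076242 counts assigned to genes. FBXW7 itself had 47.9 to 53.8 CPM (counts scaled to library size by TMM) in gLuc, 53.4 to 55.5 CPM in gFBXW7 and 45.2 to 71.7 CPM in gFBXW7_gKMT2D. KMT2D had 41.0 to 104.3 CPM in gLuc, 48.8 to 65.1 CPM in gFBXW7 and 28.6 to 107.0 CPM in gFBXW7_gKMT2D. A whole-gene count does not show a small edit, and the way the RNAs act is not given. These overlapping values therefore settle neither the targeting nor the labels. Plasma cell markers summed to 11244 to 17262 CPM, most of it JCHAIN (7766 to 13569 CPM), with 10 of 12 tested and CD27 and CD79A at or near 0. Markers of T and NK cells (CD2 and NKG7 at 0), of myeloid cells (FCGR3A and S100A8 at 0) and of epithelial cells (EPCAM, KRT8 and KRT19 at 0) summed to at most 0.431 CPM in any library, with 0 of these 17 genes tested. The erythroid list summed to 21.8 to 43.9 CPM, nearly all of it HBB, and the stromal and endothelial list to 0.618 to 2.14 CPM, with COL1A2 at 0. The library gFBXW7_gKMT2D 3 stood apart from the other 8 in the share of ribosomal protein messages, so the counts and medians of the members and lists are also given without it, and single genes where the value moved by over 1.5 times.

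Per length, these were among the most abundant messages of the cells. The median over the 77 tested members of the mean level was 789 RPKM (reads scaled by gene length and library total), against 5.43 RPKM over all tested genes, and 43 of the 100 gene rows with the highest mean RPKM were members. RPL37A, a zinc-binding large-subunit protein, had the highest level, with a mean of 4472 RPKM and a range of 2537 to 7524 over the 9 libraries. RPS6, the small-subunit protein phosphorylated by the S6 kinases downstream of mTORC1, followed with 4417 RPKM, and the stalk proteins RPLP1 and RPLP0 had 3440.5 and 3308 RPKM. The ranges of these genes over libraries overlapped (for RPLP0, 2176 to 5221 RPKM), so their order did not exceed the spread. RPL36A (4.06 RPKM), RPL17 (8.71 RPKM) and RPL39L (24.5 RPKM) were the lowest of the tested members.

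**Figure D1:**
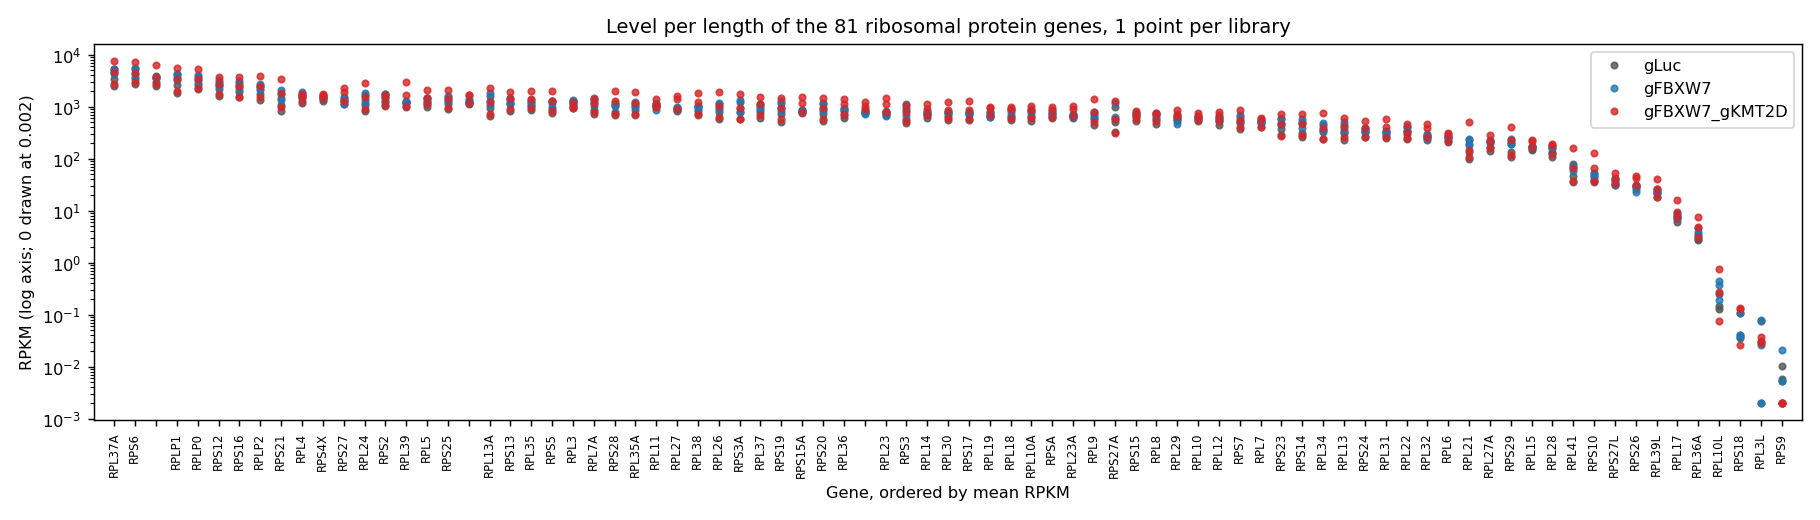
Level per length (RPKM, log axis) of each of the 81 ribosomal protein genes, ordered by mean, with 1 point per library coloured by group, a few columns without a gene name and values of 0 drawn at 0.002. Of the 81 genes, 70 had a mean over 100 RPKM, the groups overlap for most genes (RPS26 is an exception), and RPL10L, RPS18, RPL3L and RPS9 lie far below the others.

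The remaining 4 members had too few reads to be tested. RPS9 had 2, 1 and 1 counts in gLuc, 1, 0 and 4 in gFBXW7 and 0 in every gFBXW7_gKMT2D library, and RPS18 had 2 to 7 counts per library, although the ribosome contains both proteins. Counts of 0 to 3 allow no comparison, since a count of 0 is compatible with up to 3 reads. RPL3L, the heart and skeletal muscle copy of RPL3, had 0 to 3 counts per library, and RPL10L, a testis copy of RPL10, had 1 to 11. RPL17, RPL36A and RPS10, which have low levels for ribosomal proteins, overlap the read-through genes RPL17-C18orf32, RPL36A-HNRNPH2 and RPS10-NUDT3, each with 0 counts in all 9 libraries. Another 34 rows with names of ribosomal protein pseudogenes held 0.653% to 1.78% of counts. How reads shared by overlapping genes or near-identical copies were assigned is not given in the sources used here and its part in these levels was not tested, so single levels are uncertain and a gene with few counts may still be expressed.

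The share of all counts that fell in the 81 genes differed more within groups than between them. It was 8.21%, 6.13% and 5.0% in gLuc libraries 1 to 3, 8.53%, 7.43% and 6.76% in gFBXW7, and 8.04%, 5.43% and 11.2% in gFBXW7_gKMT2D. Group means were 6.45 ± 1.63%, 7.57 ± 0.892% and 8.22 ± 2.88% (SD, n = 3 each), and the 3 groups overlapped. The gFBXW7_gKMT2D group held both the highest value of all 9 libraries and the second lowest. Differences between group means accounted for 17.0% of the sum of squares over the libraries, and for 16.5% without gFBXW7_gKMT2D 3. The large-subunit and stalk genes (2.89% to 6.14% of counts) and the small-subunit genes (2.12% to 5.05%) each had their lowest share in gLuc 3 and their highest in gFBXW7_gKMT2D 3. In bulk RNA, fewer cells of a kind and less of the RNA per cell cannot be told apart.

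Other features of the libraries moved with this share. MALAT1, a nuclear RNA, made up 0.191%, 0.123% and 0.0961% of counts in gLuc, 0.281%, 0.206% and 0.188% in gFBXW7, and 0.197%, 0.114% and 0.475% in gFBXW7_gKMT2D, which is the order of the ribosomal protein share within each group. Transcripts of mitochondrial DNA made up 1.64%, 3.02% and 3.33%, then 0.638%, 1.52% and 1.54%, then 3.63%, 3.67% and 2.04%, the opposite order within each group. The length of the gene that held the median read was 3287, 3573 and 3838 bases in gLuc, 3329, 3416 and 3481 bases in gFBXW7 and 3287, 3761 and 3114 bases in gFBXW7_gKMT2D, again in the opposite order. Members are short, with a median gene length of 942 bases against 3908.5 over all tested genes. The part of these features in the ribosomal protein share was not tested.

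**Figure D2:**
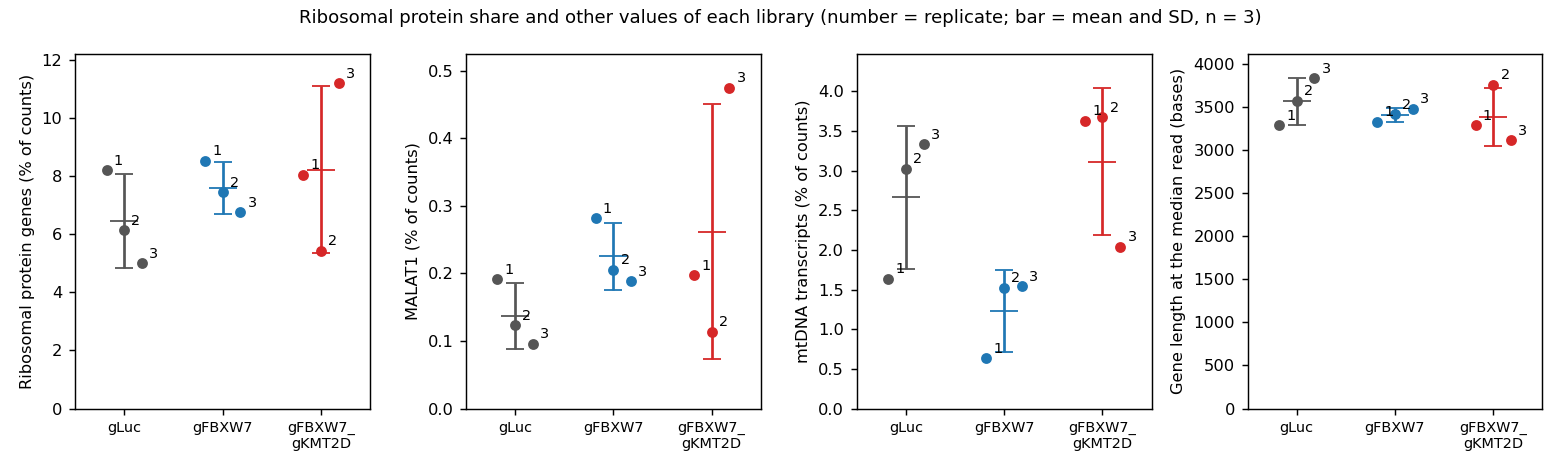
Share of counts in the 81 ribosomal protein genes, in MALAT1 and in transcripts of mitochondrial DNA, and the gene length at the median read, for each of the 9 libraries (points numbered by replicate) with the group mean and SD as bars (n = 3). The ribosomal protein share runs from 5.0% in gLuc 3 to 11.2% in gFBXW7_gKMT2D 3 and overlaps between groups, and MALAT1 has the same order of libraries within each group.

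The members went up and down together. For each library, the median over the 77 tested members of log2 CPM minus the gene's mean was 0.19, -0.28 and -0.58 in gLuc, 0.21, 0.03 and -0.11 in gFBXW7, and 0.19, -0.51 and 0.91 in gFBXW7_gKMT2D, while the same median over all tested genes stayed between -0.02 and 0.01. A principal component analysis of the 77 genes over the 9 libraries placed 91.7% of their variance on the first component, and 89.0% without gFBXW7_gKMT2D 3. Of the 77 members, 73 were highest in gFBXW7_gKMT2D 3, and the exceptions included RPL11 and RPL29, highest in gFBXW7_gKMT2D 1, and RPL3, highest in gFBXW7 1. The lowest library was gLuc 3 for 64 members, gFBXW7_gKMT2D 2 for 8, and gFBXW7 1 for RPL11, RPL23, RPL29 and RPS26. Of the 77 members, 72 followed the order of the median within gLuc (the common order), 52 within gFBXW7 and 73 within gFBXW7_gKMT2D.

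**Figure D3:**
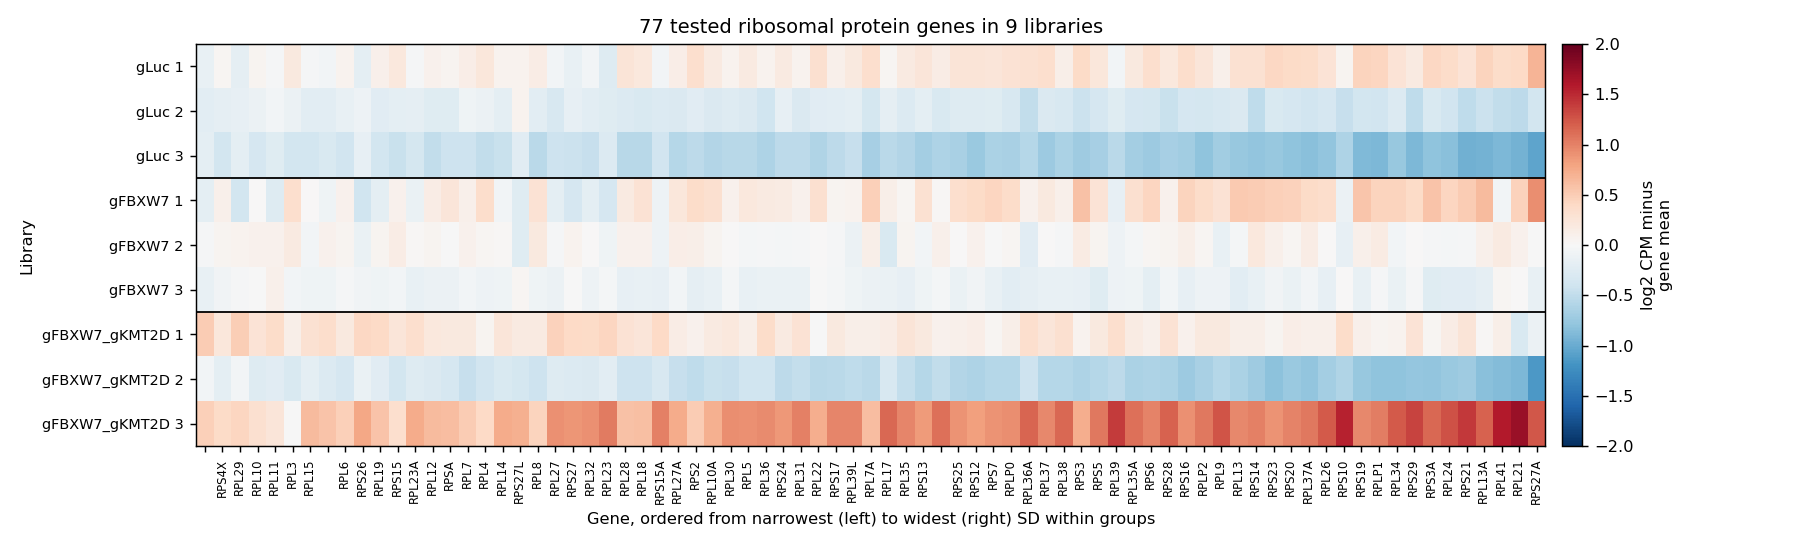
Log2 CPM of each tested ribosomal protein gene (columns, narrowest to widest SD within groups) minus its mean over the 9 libraries (rows), with black lines between the groups and a few columns without a gene name. Whole rows share a colour: gFBXW7_gKMT2D 3 is high for nearly all genes, gLuc 3 and gFBXW7_gKMT2D 2 are low, and the genes at the left, RPS4X and RPL29 among them, vary least.

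Over all 9 libraries, group accounted for about as much of the variation in the median member as in the median gene, and the spread within groups was wider. The median share of the sum of squares of log2 CPM that lay between groups was 18.5% for the 77 members and 18.8% for all 13262 tested genes, and without gFBXW7_gKMT2D 3 it was 19.8% and 27.3%. The median SD within groups was 0.48 for the members and 0.27 for all tested genes (0.35 and 0.21 without gFBXW7_gKMT2D 3), and 14.8% of all tested genes exceeded the SD of the median member. After the median of the members was subtracted in each library, the median SD of the members was 0.17. The ratio of the highest to the lowest library had a median of 2.89 over the members (1.86 without gFBXW7_gKMT2D 3) and 1.79 over all tested genes. Differences between groups made up less than 50% of the sum of squares in 74 of the 77 members, and RPL29 (56.1%) and RPS26 (54.4%) were among the exceptions. Without gFBXW7_gKMT2D 3 it was 76 of 77. The lowest share was that of RPS27A (6.94%).

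The stalk proteins RPLP0, RPLP1 and RPLP2, which recruit the elongation factors to the ribosome, showed the common pattern. RPLP0 (chromosome 12, 120196686 to 120201235, GRCh38) had 4922, 3223 and 2579 CPM in gLuc, against 5239, 4161 and 3507 in gFBXW7 and 4367, 2713 and 7737 in gFBXW7_gKMT2D. The highest and the second lowest library belonged to the same group, and all 3 groups overlapped. Its log2 fold change in gFBXW7_gKMT2D against gLuc was 0.47 (SE 0.38, adjusted p = 0.90), smaller than its SD within groups of 0.54. RPLP1 had 2239, 1276 and 899 CPM, then 2274, 1866 and 1634 CPM, then 1730.2, 954 and 3377 CPM in the same order, and RPLP2 ran from 621 CPM in gLuc 3 to 2245 CPM in gFBXW7_gKMT2D 3. Neither separated the groups, with log2 fold changes of 0.46 (SE 0.45) and 0.60 (SE 0.40) in the same comparison. Without gFBXW7_gKMT2D 3 the 3 values were -0.01, -0.13 and 0.07.

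Among small-subunit proteins, RPS6 (chromosome 9, 19375715 to 19380254) had 4431, 2760.4 and 2123 CPM in gLuc, against 4727, 3596 and 3066 in gFBXW7 and 3754, 2298 and 6967 in gFBXW7_gKMT2D. Its values overlapped between all groups, with 0.29 as log2 fold change (SE 0.40, adjusted p = 0.96) in gFBXW7 against gLuc. RPS19, the gene most often mutated in Diamond-Blackfan anaemia, had group means of 1229.8 ± 582, 1582 ± 399 and 1662 ± 947 CPM (SD, n = 3, in the order gLuc, gFBXW7, gFBXW7_gKMT2D). RPS14, whose loss marks the 5q deletion syndrome, had means of 697 ± 292, 961 ± 217 and 1023 ± 585 CPM in the same order. For both genes the libraries of all groups overlapped. RPS3, which lines the entry of the message into the small subunit, had means of 1847 ± 770.0, 2448 ± 641 and 2328 ± 1049 CPM, and RPS2, its neighbour there, had 1238 ± 387, 1434 ± 265 and 1400.2 ± 469 CPM. RPSA, related to the laminin receptor, varied less, from 664 to 1363 CPM over the 9 libraries.

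RPS27A, which is made as a fusion with ubiquitin, had the widest spread within groups of all tested members. It had 1382, 667 and 414 CPM in gLuc, against 1634, 858 and 774 in gFBXW7 and 797, 391 and 2043 in gFBXW7_gKMT2D, an SD within groups of 0.92 on the log2 scale. Libraries of the same group thus lay up to 5.23-fold apart, and the groups overlapped throughout. RPL21 followed with an SD of 0.90 and a 6.41-fold range, from 53.5 CPM in gLuc 3 to 343 CPM in gFBXW7_gKMT2D 3. RPL41, among the shortest proteins of the cell, had an SD of 0.81 and RPL13A, also known from the GAIT complex that silences translation in myeloid cells, had 0.75. RPS21, RPL24, RPS3A, RPS29, RPL34 and RPLP1 completed the 10 widest, with SDs down to 0.67. Without gFBXW7_gKMT2D 3, RPS27A still had the widest SD (0.74), whereas RPL21 had 0.50 and RPL41 0.52.

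Among the members with the narrowest spread were RPS4X (SD 0.21), RPL29 (0.22), RPL10 (0.22) and RPL11 (0.22). RPS4X, the X-linked form of a small-subunit protein, had 1495, 1289 and 1132 CPM in gLuc, against 1567, 1501 and 1382 in gFBXW7 and 1694, 1272 and 1887 in gFBXW7_gKMT2D. It kept the common order of libraries within each group at a smaller size, with a 1.67-fold range and overlapping groups. RPL10, a late-joining large-subunit protein mutated in some T cell leukaemias, ranged over 1260.0 to 1996 CPM. RPL3, RPL15, RPL6 and RPS26 were also among the 10 narrowest, which had SDs up to 0.28. Without gFBXW7_gKMT2D 3 the SDs were 0.19 for RPS4X, 0.21 for RPL10, 0.23 for RPL29, 0.24 for RPL11 and 0.26 for RPL3. In the same setting RPL23 and RPS27L, with 0.37 and 0.34 over all libraries, also had 0.23. Across the 77 members the SD within groups followed neither gene length (Spearman's rho -0.096) nor mean RPKM (0.14) closely, and its rho with GC content was -0.23. Genes of the same libraries are not independent, and these correlations over genes are descriptions.

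RPL5 and RPL11 form, with a small ribosomal RNA, the particle that binds MDM2 when ribosome assembly is disturbed, and their messages had different orders of libraries. RPL5 had 1562, 1129 and 935 CPM in gLuc, against 1593, 1345 and 1246 in gFBXW7 and 1492, 1045 and 2581 in gFBXW7_gKMT2D, the common order. RPL11 (chromosome 1, 23691742 to 23696835) had 663, 651 and 573 CPM, then 568, 716 and 726 CPM, then 877, 580.0 and 803 CPM. Its order within gFBXW7 was the reverse of the common order, its values overlapped between groups, and its log2 fold change in gFBXW7_gKMT2D against gLuc was 0.26 (SE 0.19, adjusted p = 0.90). RPL3, which lies near the peptidyl transferase centre, was the only tested member that was highest in gFBXW7 1, with 1725, 1388 and 1159 CPM in gLuc, against 1894, 1701 and 1448 in gFBXW7 and 1624, 1214 and 1496 in gFBXW7_gKMT2D. RPL22, deleted in some T cell leukaemias, had means of 638 ± 206, 752 ± 101 and 772 ± 346 CPM (SD, n = 3).

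In gFBXW7 against gLuc, which asks about the FBXW7-targeting RNA alone, no member passed the test. The edgeR quasi-likelihood test called 0 of the 77 at a Benjamini-Hochberg adjusted p under 0.05, beside 0% of all tested genes, and 0 had an unadjusted p under 0.05, beside 1.58% of all tested genes (0.648% counting those higher only). DESeq2 also called 0, with 0 at an unadjusted p under 0.05. The log2 fold change was positive in 75 of the 77 members, beside 49.3% of all tested genes, with a median of 0.24 (range -0.12 to 0.48) against -0.00 over all tested genes. For 76 of the 77 it was smaller than the gene's own SD within groups. The largest values were those of RPS29 (0.48, SE 0.46), RPS14 (0.46, SE 0.42) and RPL21 (0.44, SE 0.60), and the smallest those of RPS27L (-0.12, SE 0.24) and RPS26 (-0.04, SE 0.21), with adjusted p of 0.96 or above. No member's libraries separated the groups, beside 4.37% of all tested genes higher and 4.49% lower without overlap. The median was 0.49 without gLuc 1, 0.07 without gLuc 3 and 0.15 without gFBXW7 1. RPS29, RPS14 and RPL21 had 0.83, 0.85 and 0.92 without gLuc 1 but 0.26, 0.24 and 0.18 without gLuc 3, and without gFBXW7 1 RPS14 and RPL21 each had 0.29.

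In gFBXW7_gKMT2D against gFBXW7, which asks about the added KMT2D-targeting RNA, again 0 of the 77 members were called, beside 0.0603% of all tested genes, and DESeq2 called 0. An unadjusted p under 0.05 by edgeR was found for 3 members, RPL23 and RPS26 among them, all higher, beside 4.22% of all tested genes (2.3% counting those higher only). By DESeq2 6 members had it, a count without its own share of all tested genes, so the edgeR shares are no background for it. The log2 fold change was positive in 70 members, beside 54.6% of all tested genes, with a median of 0.29 (range -0.22 to 0.78) against 0.02, and it was smaller than the SD within groups for 60 members. RPS10, RPL39 and RPL23 had the largest values, 0.78 (SE 0.43), 0.73 (SE 0.38) and 0.66 (SE 0.26), and RPL3, RPS3 and RPL4 the lowest, -0.22 (SE 0.20), -0.07 (SE 0.38) and -0.05 (SE 0.25), all at an adjusted p of 1.0. In log2 CPM no member separated these groups, beside 4.35% of all tested genes higher and 5.2% lower without overlap. Leaving out gFBXW7_gKMT2D 3, 0 members were higher and 1 lower, beside 13.4% and 14.7% of all tested genes. Without gFBXW7_gKMT2D 3 the median was -0.14 with 22 of 77 members positive and 1 at an unadjusted p under 0.05, and without gFBXW7_gKMT2D 2 it was 0.55. Shares of all tested genes are not given for the counts without gFBXW7_gKMT2D 3, so these have no background. RPS10, RPL39 and RPL23 had 0.056, 0.098 and 0.30 without gFBXW7_gKMT2D 3. RPL3 had -0.11 without gFBXW7_gKMT2D 2 and -0.13 without gFBXW7 1.

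In gFBXW7_gKMT2D against gLuc all 77 members had a positive log2 fold change, beside 50% of all tested genes, and none passed the test. The median was 0.48 (range 0.02 to 1.0) against 0.00 over all tested genes. The absolute log2 fold change was smaller than the SD of the same gene within groups for 37 members. By edgeR 0 members were called, beside 0.0528% of all tested genes, and by DESeq2 0, and the lowest adjusted p by edgeR was 0.90. An unadjusted p under 0.05 by edgeR was found for 12 members (among them RPL15, RPL23, RPL27, RPL29, RPL32, RPL36, RPL39, RPS10, RPS15A, RPS26 and RPS27), all higher, beside 3.61% of all tested genes (2.14% counting those higher only). By DESeq2 14 members had it, again without a share of all tested genes for that test. The members moved together over libraries, so these are not counts of independent genes. RPS10 (1.0, SE 0.43), RPS21 (0.88, SE 0.49) and RPL39 (0.88, SE 0.38) had the largest values and RPL3 (0.02, SE 0.20), RPL4 (0.15, SE 0.25) and RPS2 (0.18, SE 0.30) the smallest. Without gFBXW7_gKMT2D 3, RPS10 had 0.27, RPS21 0.16 and RPL39 0.24. Large-subunit genes had a median of 0.51, small-subunit genes of 0.44 and stalk genes of 0.47, against 0.13, 0.02 and -0.01 without gFBXW7_gKMT2D 3. Without gFBXW7_gKMT2D 3 the median was 0.08 with 49 of 77 members positive and 2 at an unadjusted p under 0.05, without gFBXW7_gKMT2D 2 it was 0.77, without gLuc 1 it was 0.74 and without gLuc 3 it was 0.31. The counts of members without gFBXW7_gKMT2D 3 again lack a share of all tested genes. With the gene length trend of each library removed the 3 medians, in the order of the comparisons given, were 0.08, 0.19 and 0.26. The comparisons share libraries and are not independent of each other.

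**Figure D4:**
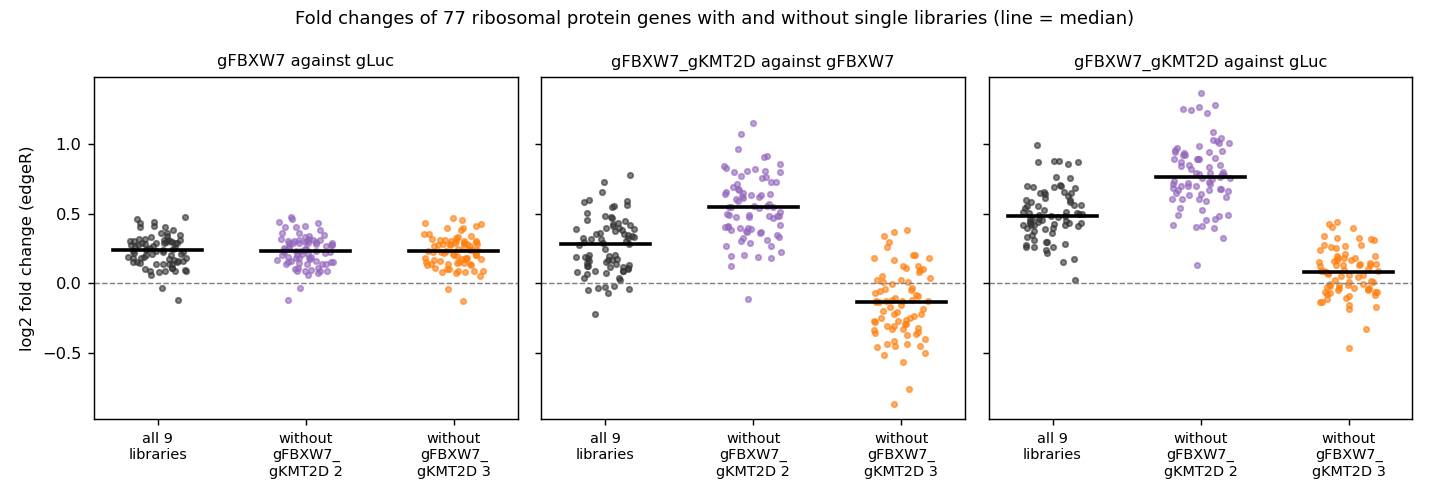
Log2 fold change (edgeR) of each of the 77 tested ribosomal protein genes in the 3 comparisons (panels), with all 9 libraries and without gFBXW7_gKMT2D 2 or 3, with the median as a line. In gFBXW7_gKMT2D against gLuc the median goes from 0.48 to 0.77 or 0.08, and in gFBXW7_gKMT2D against gFBXW7 from 0.29 to 0.55 or -0.14, when 1 library is left out.

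With the 3 groups tested at once, edgeR called 0 members, beside 0.0452% of all tested genes, and DESeq2 called 0. By edgeR 5 members had an unadjusted p under 0.05, among them RPL23, RPL27, RPL29 and RPS26, beside 2.87% of all tested genes. By DESeq2 10 members had it, and no share of all tested genes is given for that test. Without gFBXW7_gKMT2D 3 no member had an unadjusted p under 0.05 by edgeR, also without a share of all tested genes. In 3 members (3.9%), RPL23 and RPL29 among them, the gFBXW7_gKMT2D libraries all lay above the gLuc libraries in log2 CPM. That is close to the 3.28% of all tested genes, and no member lay below, beside 3.69%. Without gFBXW7_gKMT2D 3 there were 3 members above, beside 7.35% of all tested genes, and 0 below, beside 6.79%. RPL23, a further protein that binds MDM2, had 409.9, 411 and 403 CPM in gLuc, against 388, 459 and 474 in gFBXW7 and 658, 422 and 1001 in gFBXW7_gKMT2D. RPL29, a basic protein also described as heparin-binding, had 384, 388 and 379 CPM, then 336, 459 and 429 CPM, then 612, 417 and 586 CPM. In both genes gFBXW7_gKMT2D 2 lay close to the controls and the other libraries of its group well above, and both overlapped gFBXW7. The log2 fold changes against gLuc were 0.77 (SE 0.26, adjusted p = 0.90) and 0.49 (SE 0.18, adjusted p = 0.90), and 0.41 and 0.43 without gFBXW7_gKMT2D 3. RPS26, a Diamond-Blackfan anaemia gene at the exit of the message channel, had 18.5, 19.8 and 19.1 CPM in gLuc, against 16.1, 19.5 and 20.4 in gFBXW7 and 28.6, 19.6 and 36.7 in gFBXW7_gKMT2D. Its library gFBXW7_gKMT2D 2 fell within the gLuc range of CPM, so the groups overlapped on that scale. In RPKM, which is not scaled by TMM, that library had 31.2, above both other groups (26.4 to 30.1 in gLuc, 22.9 to 30.7 in gFBXW7).

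Relative to the common level, that is, with the median of the members subtracted in each library, some members, named after their values were seen, separated the groups. Between gFBXW7_gKMT2D and gFBXW7, RPL23, RPL27, RPL31, RPL35, RPL36, RPL36A and RPS15A were higher without overlap, 7 members beside 0.558% of all tested genes, and RPL22, RPL7A, RPS12, RPS23 and RPS3 were lower, 5 members beside 4.03%. The share of all genes is no like-for-like background here, since subtracting the members' median shifts genes that do not move with it. Without gFBXW7_gKMT2D 3, which leaves 2 libraries in the group, 18 members were higher and 20 lower, beside 7.25% and 5.99%. RPL36, whose relative log2 values were -0.11, -0.12 and -0.03 in gLuc, -0.03, -0.04 and -0.02 in gFBXW7 and 0.19, 0.12 and 0.04 in gFBXW7_gKMT2D, and RPL35 were also above gLuc (2 members, beside 0.294% of all tested genes). RPL22 and RPS2 lay below gLuc (2 members, beside 4.15%). Without gFBXW7_gKMT2D 3, 8 members were above gLuc and 7 below, beside 1.49% and 5.7% of all tested genes. Between gFBXW7 and gLuc, RPL27A was higher, beside 0.912% of all tested genes, and RPS24 lower, beside 4.33%. With the libraries scaled on the ribosomal protein genes themselves, edgeR called 0 of the 77 members in any comparison, and 0 had an unadjusted p under 0.05. This scaling takes out the members' common level, so it can show only departures of single members from that level. In that fit the log2 fold change of RPS3 in gFBXW7_gKMT2D against gFBXW7 was -0.30 (SE 0.17) and that of RPL36 was 0.14 (SE 0.17), and the median of all tested genes was shifted by -0.30 in gFBXW7 against gLuc, -0.02 in gFBXW7_gKMT2D against gFBXW7 and -0.34 in gFBXW7_gKMT2D against gLuc.

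Copies of a pair differed widely in level. RPS27, a zinc-finger protein of the small subunit, had 462, 455 and 378 CPM in gLuc, against 406, 538 and 506 in gFBXW7 and 668, 423 and 936 in gFBXW7_gKMT2D. RPS27L, its p53-inducible copy without a TOP start, had 42.9, 43.1 and 34.9 CPM, then 34.6, 34.5 and 41.9 CPM, then 46.3, 31.8 and 67.0 CPM. Groups overlapped for both, and the log2 fold changes in gFBXW7 against gLuc were 0.16 (SE 0.26) and -0.12 (SE 0.24), a difference that was not tested. Per length RPS27 had 1488 RPKM and RPS27L 38.2 RPKM. RPL39, at the end of the exit tunnel, had means of 464 ± 75.7, 513 ± 13.8 and 853 ± 553 CPM, and its testis-enriched copy RPL39L had 15.3 ± 3.62, 16.3 ± 1.13 and 21.0 ± 11 CPM (SD, n = 3). The large SD of both in the last group came with gFBXW7_gKMT2D 3, which had 1466 CPM of RPL39 and 33.2 CPM of RPL39L. RPL36A, with 7.55 to 25.5 CPM, and RPL7A, with 608 to 1471 CPM, followed the common order within gLuc and gFBXW7_gKMT2D.

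The 6 tested ribosomal protein genes whose symbols fall outside the rule had median log2 fold changes of 0.26, 0.17 and 0.47 in gFBXW7 against gLuc, gFBXW7_gKMT2D against gFBXW7 and gFBXW7_gKMT2D against gLuc, and 0 called in each. FAU, which encodes RPS30 fused to a ubiquitin-like protein, had 789, 530 and 379 CPM in gLuc, against 974, 696 and 594 in gFBXW7 and 669, 385 and 1356 in gFBXW7_gKMT2D. RPL36AL, the autosomal copy of RPL36A, ran from 116.5 CPM in gFBXW7_gKMT2D 2 to 429 CPM in gFBXW7_gKMT2D 3. RPL22L1, RPL26L1 and RPL7L1, paralogs of RPL22, RPL26 and RPL7, had log2 fold changes of 0.73 (SE 0.35), 0.60 (SE 0.31) and 0.26 (SE 0.24) in gFBXW7_gKMT2D against gLuc, at an adjusted p of 0.90. Without gFBXW7_gKMT2D 3, in which all 6 were highest, these 3 values were 0.17, 0.16 and -0.10, and the medians of the 6 genes were 0.26, -0.16 and 0.0029.

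Messages with a TOP start that do not encode ribosomal proteins, such as elongation factors, moved in the same order with a smaller size. Over 31 such genes the medians were 0.16, 0.09 and 0.24 in the 3 comparisons, the median SD within groups was 0.29, and 0 were called. SNRPD2, a splicing protein gene, PFDN5, a prefoldin subunit, and COX4I1, a cytochrome oxidase subunit, had the largest values in gFBXW7_gKMT2D against gLuc, 0.63 (SE 0.38), 0.55 (SE 0.36) and 0.48 (SE 0.36). Without gFBXW7_gKMT2D 3 they had 0.063, 0.0037 and 0.034, and the medians of the list were 0.16, -0.15 and 0.0037. Ribosome assembly factors and RNA polymerase I subunits (58 genes) had medians of 0.07, -0.00 and 0.02, and initiation and elongation factors without a TOP sequence (29 genes) had 0.11, -0.01 and 0.06. Both lists had 0 genes called and narrower SDs within groups (0.22 and 0.20). POLR1A, the largest subunit of RNA polymerase I, had the opposite order of libraries within these groups, with 26.9, 41.9 and 62.5 CPM in gLuc and 25.6, 61.3 and 9.90 CPM in gFBXW7_gKMT2D. TOP regulators and the mTORC1 arm (14 genes) had medians of -0.13, 0.09 and -0.03, and p53 targets (17 genes) -0.07, -0.08 and -0.13, again with 0 called. Without gFBXW7_gKMT2D 3, the medians in gFBXW7_gKMT2D against gFBXW7 and against gLuc were -0.09 and -0.05 for assembly factors, -0.06 and -0.06 for the initiation and elongation factors, 0.18 and 0.03 for TOP regulators, and -0.04 and -0.07 for p53 targets.

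Short messages of other complexes shared the pattern. Nuclear-encoded parts of the respiratory chain and ATP synthase (77 of 84 tested, median gene length 1124 bases) had medians of 0.30, 0.15 and 0.43 and a median SD within groups of 0.47, against 0.24, 0.29, 0.48 and 0.48 for the ribosomal proteins. Per library their median ran from -0.58 in gLuc 3 to 0.85 in gFBXW7_gKMT2D 3, beside -0.58 and 0.91 for the ribosomal proteins. Mitochondrial ribosomal proteins (75 of 77 tested, median gene length 1423 bases) had medians of 0.21, 0.07 and 0.29, an SD of 0.29 and a range from -0.41 to 0.53 in the same libraries. Without gFBXW7_gKMT2D 3 the medians were 0.29, -0.31 and 0.0020 for the respiratory chain and 0.20, -0.19 and -0.0020 for the mitochondrial ribosomal proteins. Neither list had a gene called. Differences between these lists and the cytosolic ribosomal proteins were not tested. Transcripts of mitochondrial DNA had a different pattern, with medians of -1.03, 1.26 and 0.33 over 13 genes and 62.1% of the sum of squares between groups for the median gene, and medians of -1.03, 1.45 and 0.43 without gFBXW7_gKMT2D 3. Of these 13 genes 0 were called in each comparison, and 10, 13 and 1 had an unadjusted p under 0.05 by edgeR.

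**Figure D5:**
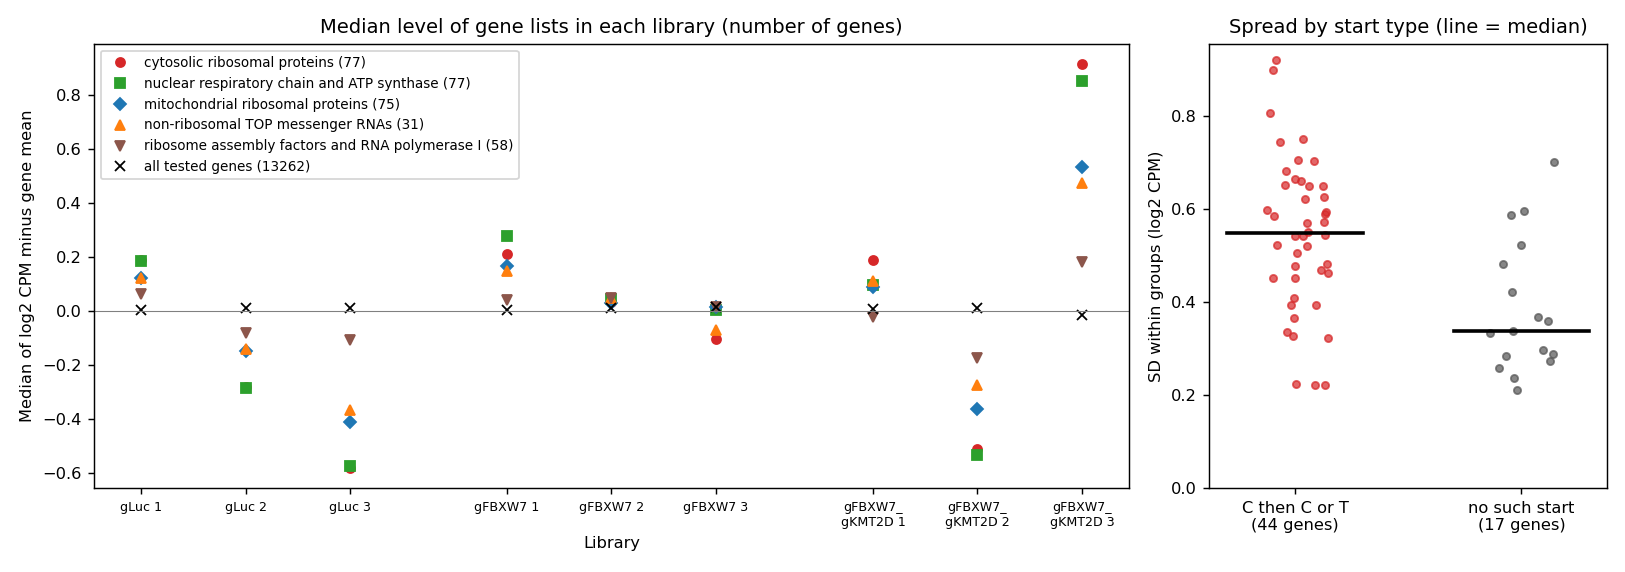
Left, median over each gene list of log2 CPM minus the gene's mean, for each library. Right, SD within groups of each member with a listed TOP start (C then C or T, 44 genes) and without one (17 genes), with the median as a line. Cytosolic ribosomal proteins and respiratory chain subunits nearly coincide, from about -0.58 in gLuc 3 to 0.91 and 0.85 in gFBXW7_gKMT2D 3, while all tested genes stay near 0.

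The spread between libraries differed between members with and without a listed TOP start. The 44 tested members with such a start had a median SD within groups of 0.55 (range 0.22 to 0.92), and the 17 tested members with a listed start of another kind had a median of 0.34 (range 0.21 to 0.70). Without gFBXW7_gKMT2D 3 the medians were 0.41 and 0.26. RPL3, RPL4, RPL6, RPL15 and RPS26, all among the narrower members, and RPS4X and RPS27L, whose starts are shown above, belong to the 17, together with RPS29, which had an SD of 0.70. A tract of similar length was found at both ends of the range, with 7 pyrimidines in RPL29 and 8 in RPL11, which varied little, and 6 each in RPS27A and RPL21, which varied most. Per length, the median level was 916 RPKM with and 687 RPKM without a TOP start. Genes of a library are not independent, the ranges overlapped and the difference was not tested.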

How the data were processed

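Polyadenylated RNA of 9 OPM-1 libraries, 3 per group, was made into strand-specific libraries per the labels' protocols. The submitters' processing notes name GRCh38 and the tools STAR, Trimmomatic, DESeq2 and featureCounts, without versions. Per the file headers, 3 measures were deposited in a single table: gene length, whole-number counts that the authors had not normalised, and for each library an RPKM value, which was recomputed from count, length and library total (largest relative difference 8.5e-07). An unnamed row of library totals was left out, 12580 of 38478 rows held no read, and 28 rows with a number for a symbol stayed unnamed. Other measures, such as shares of counts, were computed from the deposited counts.

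The model fitted to the counts used edgeR 4.0.16 (R 4.3.3): filterByExpr (13262 genes), TMM, and a quasi-likelihood model of group over all 9 libraries. P-values were adjusted by Benjamini-Hochberg over the 13262 genes, with 0.05 as threshold. Log2 CPM used a prior count of 2. The SD within groups was pooled over the groups. Overlap and TOP starts were described without a test, and the pipeline was tested on simulated data. Alternatives used DESeq2 1.42.0, limma 3.58.1 on log2(RPKM + 1), sva 3.50.0 with 1 surrogate variable, a length trend removed by lowess (span 0.3), other scalings and filters, the 6 compared libraries, a replicate block, and each library left out in turn. Alternatives chosen once the values were known were scaling on the ribosomal protein genes, and the spread and list medians without gFBXW7_gKMT2D 3. Tables used pandas 2.3.3 and scipy 1.17.1 under Python 3.11.15, and figures matplotlib 3.10.9. Coordinates are those of GENCODE 29 on GRCh38, and promoters those of RefSeq on GRCh38.p14.

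The members, gene lists and tests were chosen with earlier results of these data known. Members were named by role, as paralogs, as the 3 largest and 3 smallest fold changes of each comparison, the 3 widest and 3 narrowest SDs, the 5 highest and 3 lowest RPKM, and the 3 largest shares of variation between groups, 37 in all, of which a few are not reported here. Other members named in counts or ranges were named after their values were seen. In the lists, up to 3 genes were named by the size of their fold change.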

Additional observations from a re-analysis of the deposited data

How the results depend on the processing

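No member passed the threshold in any of 83 counts, each of a single comparison under a single processing setting. The settings include the scaling on the ribosomal protein genes, which takes out their common level. The lowest adjusted p of any member was 0.054, for RPS15A with 1 surrogate variable in gFBXW7_gKMT2D against gFBXW7. Medians were less stable. When single libraries were left out, the median log2 fold change of the members ranged from 0.07 to 0.49 in gFBXW7 against gLuc, from -0.14 to 0.55 in gFBXW7_gKMT2D against gFBXW7 and from 0.08 to 0.77 in gFBXW7_gKMT2D against gLuc. With 1 surrogate variable, estimated from the same libraries, the medians were -0.02, 0.10 and 0.09. This edgeR model had 1, 26 and 16 members at an unadjusted p under 0.05. By adjusted p it called 0, 124 and 55 genes of all tested. The share of all tested genes at an unadjusted p is not given, so the member counts have no like-for-like background. The surrogate variable, from -0.46 in gLuc 3 to 0.70 in gFBXW7_gKMT2D 3, put the libraries in the same order as the members' median level. Adjusting for it takes out much of that common level, so its medians near 0 follow in part by construction. With limma on RPKM the medians were 0.23, 0.11 and 0.34. Scaled on the ribosomal protein genes, the median in gFBXW7_gKMT2D against gLuc was -0.0038, by construction near 0. As a share of summed RPKM, the group means were 14.8%, 16.8% and 17.5% in gLuc, gFBXW7 and gFBXW7_gKMT2D, since short genes weigh more per length.

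The replicate numbers were not treated as pairs, because same-numbered libraries did not deviate together throughout (correlations from -0.59 to 0.45). Between gLuc and gFBXW7 the correlations of libraries 1, 2 and 3 were 0.45, 0.02 and 0.35. Library gFBXW7_gKMT2D 3 had -0.59 with gLuc 3 and -0.25 with gFBXW7 3. Libraries of different number ran from -0.74 to 0.72. With the replicate block the medians were 0.24, 0.20 and 0.46, with 0 members called and 0, 2 and 2 of all tested genes called, against 0, 8 and 7 without it.

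Directions of single members turned under some settings, and the cause was not tested. In gFBXW7 against gLuc, RPL21 was -0.016 with 1 surrogate variable, and RPS26 ranged from -0.11 to 0.061 when single libraries were left out. In gFBXW7_gKMT2D against gFBXW7, leaving out single libraries gave -0.46 to 0.20 for RPS3 and -0.25 to 0.13 for RPL4. In gFBXW7_gKMT2D against gLuc, RPL3 was -0.042 with limma, -0.083 with 1 surrogate variable, -0.11 with the length trend removed, -0.32 when scaled on the ribosomal protein genes and -0.10 to 0.18 when single libraries were left out. RPL4 was -0.073 with 1 surrogate variable, -0.25 when scaled on the ribosomal protein genes and -0.049 to 0.35 when single libraries were left out. RPS2 was -0.11 with 1 surrogate variable, -0.037 with the length trend removed, -0.25 when scaled on the ribosomal protein genes and -0.086 to 0.45 when single libraries were left out.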
